A study of Mus musculus with 23 samples.

Results

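This report compares the epiblast of mouse embryos homozygous for a gene trap of Tet1 (Tet1gt/gt) with the epiblast of heterozygous embryos (Tet1gt/wt) at E6.25, shortly after implantation, across all genes. The libraries were chosen by their column names in the count table, which left 8 of the 23 libraries in the series, homozygous pools 1, 2, 3 and 4 and heterozygous pools 2, 3, 4 and 5. Both groups carry at least 1 trapped allele, and by their labels they differ in the second one. Other differences between these unpaired pools cannot be told apart from an effect of that allele. The series also holds 4 wild-type epiblast pools, whose levels are given beside the others, and extra-embryonic tissue (ExE) of the same 3 genotypes, used once. Each library is a pool of lysates from at least 6 embryos of 2 to 3 litters that were genotyped afterwards, so a pool averages several embryos. Their sexes are not given, and the average log2 CPM over 4 genes of the Y chromosome ran from 2.84 to 5.38 over the heterozygous and from 3.29 to 5.05 over the homozygous pools. The site of the trap within Tet1, and the strain, are not given in the sources available for this report. The labels name no tissue-specific driver.

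TET1 is a dioxygenase that oxidises 5-methylcytosine at CpG dinucleotides, the first step of active DNA demethylation, and it also binds promoters together with Polycomb and SIN3A repressor complexes. The epiblast, the cup of primed pluripotent cells that forms the embryo proper, gains DNA methylation after implantation through DNMT3A and DNMT3B. It is wrapped in visceral endoderm, a secretory and absorptive epithelium that feeds it and patterns its anterior side, and it abuts the trophoblast of the extra-embryonic ectoderm, so a dissected epiblast can carry cells of both.

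Total counts were 5764399 to 9452811 in the heterozygous libraries and 5810296 to 9427522 in the homozygous ones. Levels are counts relative to the library total (CPM) scaled by TMM, edgeR's correction for composition, and 3 counts, the most that a count of 0 allows, stand for 0.317 to 0.525 CPM in these 8 libraries, which covers counting error only. In heterozygous pool 4 and homozygous pool 3, transcripts that are short or rich in GC had higher counts than in the others. The log2 level fell by 0.375 and 0.329 per doubling of transcript length in these libraries, against slopes of 0.026 to 0.131 in the other 10 epiblast libraries. Per 10 percentage points of GC the slopes were 0.617 and 0.683, against slopes of -0.339 to 0.028. The markers of the epiblast were high in all 8 libraries. Pou5f1, the pluripotency factor OCT4, stood at 807 to 1166 CPM, Fgf5 at 135 to 399 CPM and Otx2 at 109 to 192 CPM. Summed over the 25 markers of primed pluripotency, the level was 6831 to 7650 CPM in the heterozygous pools and 6969 to 7781 CPM in the homozygous pools.

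Tet1 itself was checked first. It was read at 149, 147, 66.3 and 138 CPM in heterozygous pools 2, 3, 4 and 5 and at 69.6, 88.8, 54.9 and 114 CPM in homozygous pools 1, 2, 3 and 4. The groups overlapped, because the length-biased heterozygous pool 4 lay below 3 of the 4 homozygous pools. The homozygous level was 65.6% ± 20.5 (SD, n = 4) of the heterozygous mean. The log2 difference in the mean log2 CPM was -0.59, and the two-sided exact permutation test over the 70 splits gave p = 0.2, where 0.0286 is the smallest p the design allows. Without heterozygous pool 4 the exact p was 0.0571 and the log2 difference -0.87. That comparison kept homozygous pool 3, which has the same length bias and the lowest Tet1 level of all. With each pool left out in turn, the exact p ran from 0.0571 to 0.343. The 4 wild-type pools stood at 128 to 198 CPM. The counts are given per gene, and neither the trap site nor the annotation used for counting is known. Transcript made from the trapped allele may thus be counted too, and the Tet1 level checks the labels only in part.

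The related dioxygenases and the enzymes that write and maintain DNA methylation did not separate the genotypes. Tet2 was scarce, at 0 to 4.20 CPM in the heterozygous and 1.27 to 7.04 CPM in the homozygous pools. Tet3 stood at 22.4 to 41.3 CPM and 31.9 to 45.9 CPM. For Dnmt1, the maintenance methyltransferase, the log2 fold change (homozygous minus heterozygous, here and below, ± SE) was 0.02 ± 0.19. For the de novo enzymes Dnmt3a and Dnmt3b it was 0.02 ± 0.15 and -0.20 ± 0.17, and for their cofactor Dnmt3l -0.57 ± 0.46. Uhrf1, which brings DNMT1 to hemimethylated DNA, stood at 330 to 376 CPM and at 318 to 411 CPM. The directions of Dnmt1, Dnmt3a, Dnmt3l and Uhrf1 turned when single pools were left out.

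Across all genes few or no differences between homozygous and heterozygous epiblast were called, which does not show that the groups were alike. The pools within each group varied, and 1 library in each group had the length and GC bias. edgeR's quasi-likelihood test called 0 of 12405 genes (0%) at an adjusted p under 0.05, and the smallest adjusted p was 0.906. At an unadjusted p under 0.05 there were 308 genes, 178 higher (1.43% of those tested) and 130 lower (1.05%) in the homozygous pools. All 4 homozygous pools lay above all 4 heterozygous pools for 116 genes (0.935%), and below them for 113 genes (0.911%). The median log2 fold change was 0.01, and 6360 genes (51.3%) were higher in the homozygous pools. DESeq2, run on the same 12 epiblast libraries, called 6 of 12384 genes (0.0484%), namely Cald1, Bin1, Afp, Apob and Pkp1 higher, and Nnat lower. limma-voom called 0. The genes named below with a fold change are therefore given as levels and differences, with the edgeR adjusted p at 0.906 or above in each case, and without a call unless DESeq2 is named.

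**Figure D1:**
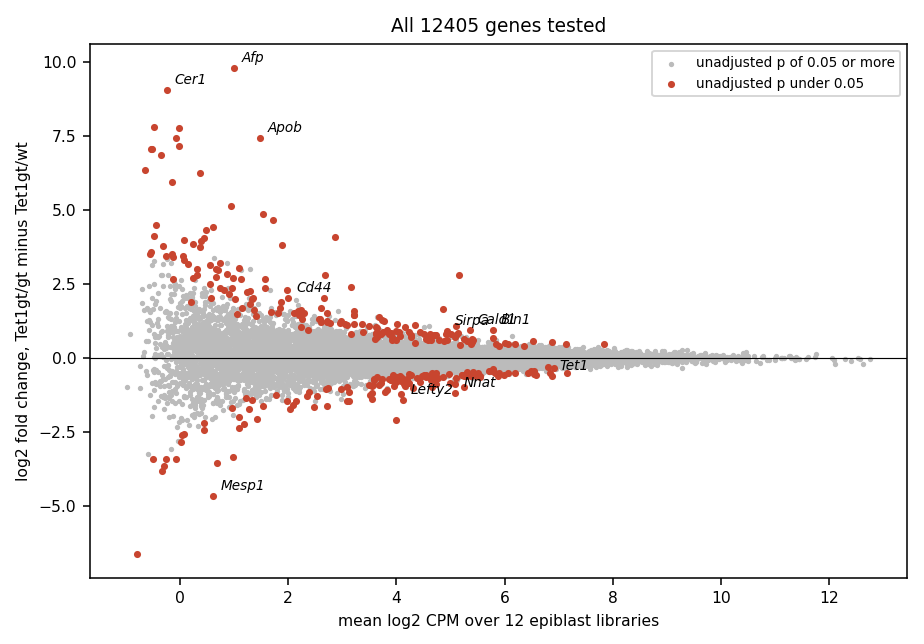
Log2 fold change of homozygous minus heterozygous epiblast (y axis) against the mean log2 CPM over 12 epiblast libraries (x axis) for the 12405 genes tested. Red points are the 308 genes with an unadjusted p under 0.05; Afp and Cer1, which had 0 counts in every heterozygous pool, and Mesp1, which had 0 in 3 of the 4 homozygous pools, lie far from 0 on the left.

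Cald1 and Bin1 had the smallest p-values among the genes higher in homozygous epiblast. Cald1 encodes caldesmon, which binds actin and restrains actomyosin contraction. It stood at 32.04, 27.5, 33.8 and 31.7 CPM in heterozygous pools 2, 3, 4 and 5, and at 60.6, 66.1, 61.1 and 50.4 CPM in homozygous pools 1, 2, 3 and 4. Every homozygous pool lay above every heterozygous one, and the 2 biased libraries sat among their own genotype. The log2 fold change was 0.93 ± 0.18 (edgeR adjusted p = 0.906, DESeq2 adjusted p = 0.00179). The wild-type pools, at 31.2 to 40.9 CPM, were at the heterozygous level. The gene lies on chromosome 6 at 34598500 to 34775473 (GRCm38, plus strand).

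Bin1 (chromosome 18, 32377230 to 32435737, plus strand) encodes amphiphysin 2, a protein that curves membranes during endocytosis. Its heterozygous levels were 50.4, 53.1, 51.1 and 54.4 CPM and its homozygous levels 98.7, 118, 111 and 77.2 CPM. The groups did not overlap, and the heterozygous pools differed from each other by little (mean 52.2 ± 1.9 SD, n = 4). The log2 fold change was 0.95 ± 0.19 (edgeR adjusted p = 0.906, DESeq2 adjusted p = 0.00419). The wild-type pools were lower again, at 25.4, 38.4, 33.9 and 30.4 CPM. In the same fit, homozygous against wild-type epiblast, where edgeR called 2 genes (0.0161%), Bin1 and Sirpa, gave 1.66 ± 0.19 on the log2 scale (edgeR adjusted p = 0.00588) and heterozygous against wild type 0.71 ± 0.19 (edgeR adjusted p = 0.982). These comparisons share libraries with the one above and are not independent of it.

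Sirpa, an inhibitory receptor for the CD47 signal, followed the same order of levels. It stood at 22.1, 40.2, 30.3 and 25.0 CPM in the heterozygous pools and at 60.04, 51.4, 53.7 and 54.4 CPM in the homozygous pools, with wild type at 14.6 to 20.2 CPM. The log2 fold change was 0.90 ± 0.22. Cd44, the receptor for hyaluronan, stood at 4.61, 5.59, 0.175 and 3.96 CPM in the heterozygous and at 14.9, 16.8, 14.3 and 12.7 CPM in the homozygous pools (log2 fold change 2.01 ± 0.61). The wild-type pools were at 1.04 to 1.85 CPM. For Sirpa and Cd44 the homozygous pools were above all heterozygous ones, and the wild-type mean was the lowest of the 3 genotypes. Bin1, Sirpa and Cd44 had led earlier comparisons of these libraries, so their order here is not independent of that choice.

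Other genes were higher in all 4 homozygous pools without that order, because their wild-type and heterozygous levels lay together or the heterozygous level was the lowest. Tnfrsf1a, the main receptor for tumour necrosis factor, stood at 11.04, 18.97, 18.5 and 18.8 CPM against 45.9, 39.4, 33.8 and 26.8 CPM (log2 fold change 1.12 ± 0.28), with wild type at 9.12 to 18.3 CPM. Sez6, which encodes a neuronal membrane protein, gave 1.68 ± 0.46. For Lmo7, an adherens junction protein, the log2 fold change was 1.57 ± 0.45 between means of 4.96 and 14.8 CPM, and the wild-type mean of 12.3 CPM was near the homozygous one. H6pd, an NADPH-forming enzyme of the endoplasmic reticulum, was similar, with 5.09 CPM in heterozygous, 14.1 CPM in homozygous and 11.95 CPM in wild-type pools on average (1.46 ± 0.42). Herc6, an interferon-inducible ubiquitin-ligase relative, stood at 0.525 to 1.07 CPM in heterozygous, 1.27 to 4.82 CPM in homozygous and 3.44 to 7.90 CPM in wild-type pools. Vegfa, the angiogenic growth factor, stood at 3.30 to 6.12, 7.04 to 11.96 and 10.1 to 18.8 CPM. Herc6 and Vegfa had led earlier comparisons of these libraries, so their order here is not independent of that choice. Pkp1, a desmosomal plakophilin outside the rule for named genes and singled out after its DESeq2 call (adjusted p = 0.0284), had 0 counts in all 4 heterozygous pools and 3.05, 4.97, 3.26 and 3.10 CPM in the homozygous pools. That is at least 6.85-fold higher, taken against the largest 3-count floor of a heterozygous library. In wild type, 3 of the 4 pools also had 0 counts, and pool 4 stood at 0.816 CPM. Pkp1 thus passed the filter on low counts only through the homozygous pools, where it was high. Its call and its bound depend on that selection and are no independent support.

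**Figure D2:**
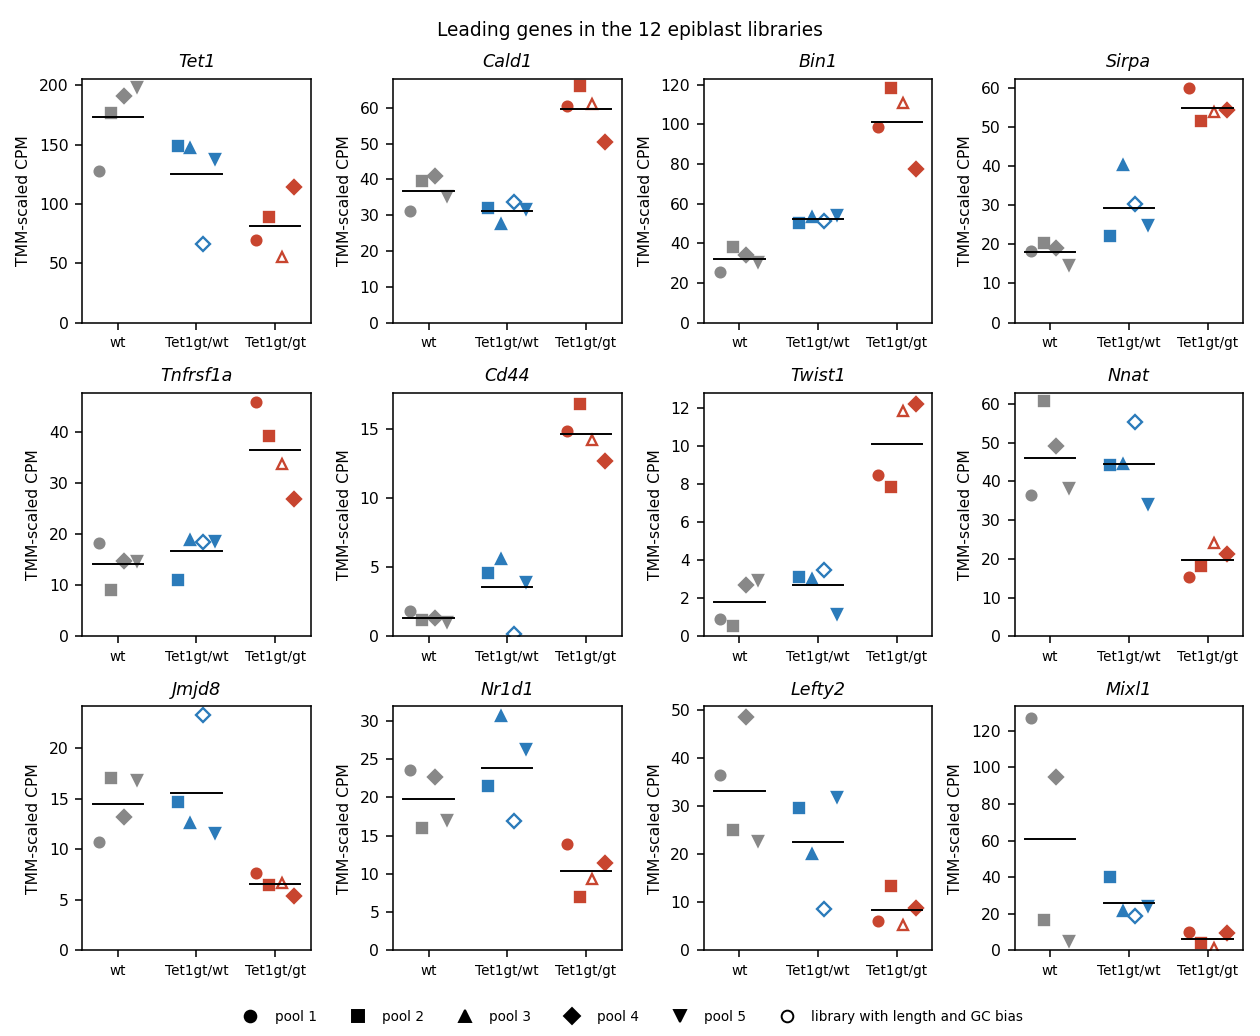
TMM-scaled CPM (y axis, from 0) of 12 genes in the 12 epiblast libraries by genotype (x axis); symbols give the pool number, open symbols the libraries with a length and GC bias, and bars the group mean. Cald1, Bin1, Sirpa, Tnfrsf1a, Cd44 and Twist1 are higher in every homozygous than in every heterozygous pool, Nnat, Jmjd8, Nr1d1 and Mixl1 are lower, and Tet1 and Lefty2 overlap through heterozygous pool 4.

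Nnat led the genes that were lower in homozygous epiblast. It is an imprinted gene, expressed from the paternal copy, and encodes neuronatin, a small membrane protein of the endoplasmic reticulum. It stood at 44.1, 44.5, 55.5 and 34.2 CPM in the heterozygous and at 15.2, 18.1, 24.2 and 21.3 CPM in the homozygous pools. The groups did not overlap, and the log2 fold change was -1.18 ± 0.24 (edgeR adjusted p = 0.906, DESeq2 adjusted p = 0.0137). The wild-type pools stood at 36.6 to 60.7 CPM, at the heterozygous level. Jmjd8, a JmjC-domain protein of the endoplasmic reticulum, stood at 14.7, 12.6, 23.3 and 11.6 CPM against 7.67, 6.45, 6.70 and 5.33 CPM, again without overlap (-1.24 ± 0.31). The wild-type pools stood at 10.7 to 17.0 CPM, so for both genes the homozygous pools were the ones apart. Nnat and Jmjd8 had also led earlier comparisons of these libraries.

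The promoters of these genes are shown because TET1 acts on CpG methylation and because Nnat is controlled by methylation at its imprinted promoter. The windows run over the 300 bases around the start of the gene in RefSeq (GRCm38.p6), 5′ to 3′ on the gene's strand, with each CpG dinucleotide (CG, the same on both strands) in capitals. Nnat is at chr2:157559828-157560127 and Jmjd8 at chr17:25828793-25829092, both on the plus strand.
Nnat: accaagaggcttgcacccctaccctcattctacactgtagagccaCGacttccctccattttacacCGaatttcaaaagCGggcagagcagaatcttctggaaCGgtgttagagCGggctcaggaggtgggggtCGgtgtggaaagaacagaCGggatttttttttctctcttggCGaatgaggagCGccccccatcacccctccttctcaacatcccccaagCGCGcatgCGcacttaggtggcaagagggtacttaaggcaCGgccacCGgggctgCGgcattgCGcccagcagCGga
Jmjd8: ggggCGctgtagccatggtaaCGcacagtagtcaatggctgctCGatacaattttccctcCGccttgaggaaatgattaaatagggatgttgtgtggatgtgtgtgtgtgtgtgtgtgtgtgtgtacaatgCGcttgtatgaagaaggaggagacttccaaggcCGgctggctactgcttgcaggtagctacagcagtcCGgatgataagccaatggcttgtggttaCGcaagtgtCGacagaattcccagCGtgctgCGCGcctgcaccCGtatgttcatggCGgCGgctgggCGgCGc
Each window holds 17 CpGs, a number that 31.4% of the 32851 RefSeq mouse windows reach (94.6% hold at least 1). The median is 21 over the 9316 tested genes with a window. CpG counts describe the sequence only. No methylation was measured in these files.

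Further genes with small p-values stood lower in every homozygous than in every heterozygous pool. Nr1d1, the circadian repressor REV-ERB alpha, stood at 21.5, 30.7, 17.0 and 26.3 CPM against 13.9, 6.98, 9.27 and 11.4 CPM (log2 fold change -1.20 ± 0.29). Rad52, a DNA repair protein, averaged 28.3 and 14.0 CPM, with 19.95 CPM in wild type. The log2 fold changes of Tmem19, Fam43a, Flad1, Mboat7 and Unc119b lay between -1.19 and -0.59. Flad1 makes FAD, and Mboat7 attaches arachidonic acid to phosphatidylinositol.

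Of the 32 gene lists, transcripts of the visceral endoderm had the highest median, and they stood highest in 2 of the 4 homozygous pools. Of 35 listed markers, 27 were tested. Of these 26 were higher in the homozygous pools (51.3% of all genes were), 12 had an unadjusted p under 0.05, all of them higher (1.43% of all genes), and 4 did not overlap (0.935%). edgeR called 0 of them and DESeq2 2, Afp and Apob (0.0484% of all genes). The median log2 fold change was 2.28, against 0.01 for all genes, and it stayed at 2.28 with the genes absent from the heterozygous pools set at their bounds. The mean log2 CPM of the 27 genes was 3.75, 4.02, 1.31 and 1.64 in homozygous pools 1, 2, 3 and 4 and 0.92, 0.60, 1.17 and 0.43 in heterozygous pools 2, 3, 4 and 5. In this average all homozygous pools were above all heterozygous ones, pools 1 and 2 by far and pools 3 and 4 by little. Summed CPM over all 35 listed markers did not keep that order. Heterozygous pool 4 held 887 CPM, above homozygous pools 3 and 4 at 841 and 546 CPM. Without homozygous pools 1 and 2, 18 of 28 tested markers were higher and the median was 0.42. Fewer cells of a type and less RNA per cell cannot be told apart in pooled lysates.

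Secreted carriers and absorptive receptors of this epithelium show the pattern. Afp, which encodes alpha-fetoprotein, was read with 0 counts in each of the 4 heterozygous pools and stood at 28.1, 27.3, 0.687 and 1.03 CPM in homozygous pools 1, 2, 3 and 4. Taken as a mean against the 3-count floor this is at least 27.2-fold higher (DESeq2 adjusted p = 0.000803), and pools 3 and 4 lie close above the floors of their own libraries, 0.515 and 0.516 CPM. Apob, the structural protein of lipoproteins, was read with 504 counts in the homozygous and 2 counts in the heterozygous pools, a ratio of 263 (95% exact binomial interval 72.3 to 2173, counting error only). Its homozygous levels were 27.2, 25.6, 0 and 3.61 CPM (DESeq2 adjusted p = 0.0481), so pool 3 had none. Cubn, the receptor cubilin, stood at 1.07, 0.233, 0 and 0 CPM against 18.2, 18.5, 1.37 and 5.85 CPM (log2 fold change 4.87 ± 1.48). Dab2, its endocytic adaptor, stood at 9.75, 27.7, 7.87 and 8.85 CPM against 154, 182, 12.5 and 27.9 CPM (2.79 ± 0.93). Apoa1 stood at 40.6, 104, 3.26 and 5.85 CPM in homozygous pools 1, 2, 3 and 4 (4.09 ± 1.34), where pools 3 and 4 lay below the highest heterozygous pool, at 6.47 CPM. The transcription factor Hnf4a was at 0 in all heterozygous pools and at 4.63, 4.76, 0 and 1.55 CPM in the homozygous ones. Hnf4a passed the filter on low counts only with the homozygous pools, so it is no independent support. Of the 7 defining markers, Afp and Hnf4a had 0 counts throughout the heterozygous pools, whereas Amn, at 1.82 to 9.97 CPM, and Apoa1, at 0.132 to 6.47 CPM, were read in each of them.

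The heterozygous pools were also low beside wild type. The list's mean log2 CPM was 5.15, 1.55, 2.73 and 1.57 in wild-type pools 1, 2, 4 and 5. The median log2 fold change of the list was -2.95 for heterozygous and -0.44 for homozygous against wild-type epiblast, in comparisons that share libraries with each other. The markers' summed level was 519 to 887 CPM in heterozygous, 546 to 1258 CPM in homozygous and 520 to 2282 CPM in wild-type pools. By these sums, both homozygous and wild-type pools ran from the heterozygous level to well above it. The sums include Apoe, Lrp2 and Cldn6, which were read in every epiblast library. By the list's mean log2 CPM, every homozygous and wild-type pool lay above the heterozygous pools, which stood at 0.43 to 1.17. With the list's level as a covariate edgeR again called 0 genes, with 239 at an unadjusted p under 0.05.

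**Figure D3:**
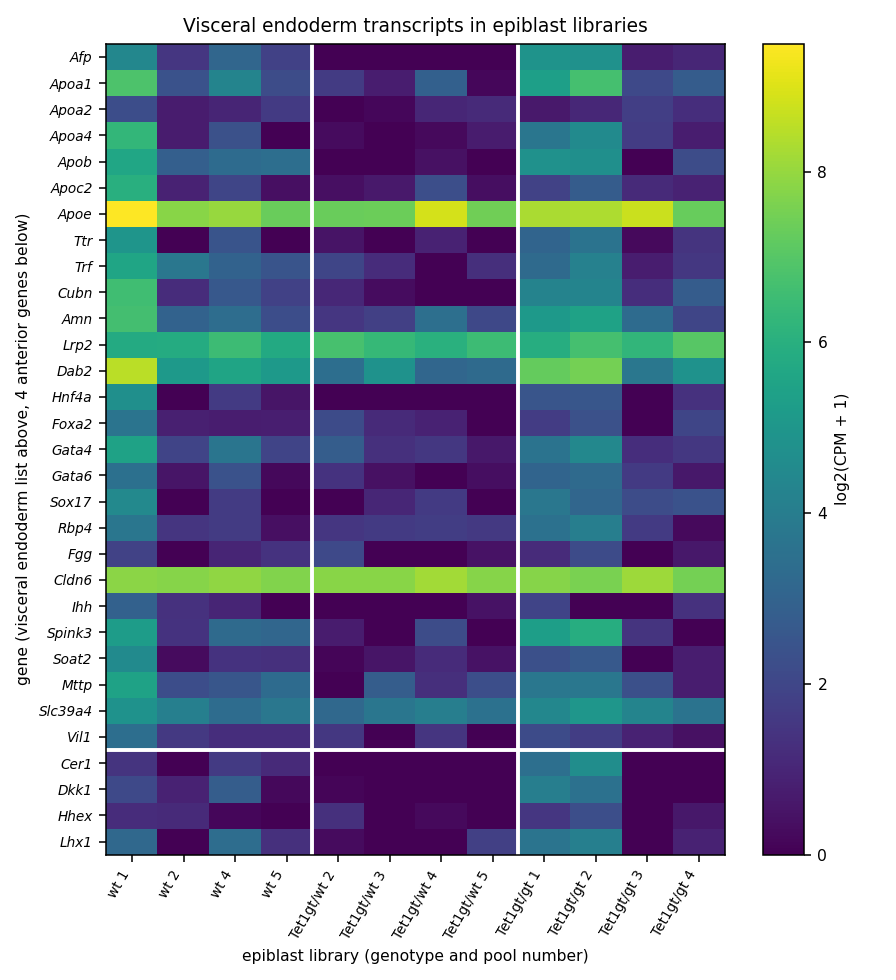
Level, as log2(CPM + 1) by colour, of the 27 tested visceral endoderm genes and 4 anterior genes (rows) in the 12 epiblast libraries (columns, by genotype and pool). Wild-type pool 1 and homozygous pools 1 and 2 are bright for most rows, the 4 heterozygous pools are dark, and Apoe, Lrp2 and Cldn6 are bright in every column.

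The promoters of Afp and Cubn are printed beside those above to show how these genes differ from them in CpG content. Afp is at chr5:90490464-90490763 on the plus strand and Cubn at chr2:13491827-13492126 on the minus strand, in the same build and orientation.
Afp: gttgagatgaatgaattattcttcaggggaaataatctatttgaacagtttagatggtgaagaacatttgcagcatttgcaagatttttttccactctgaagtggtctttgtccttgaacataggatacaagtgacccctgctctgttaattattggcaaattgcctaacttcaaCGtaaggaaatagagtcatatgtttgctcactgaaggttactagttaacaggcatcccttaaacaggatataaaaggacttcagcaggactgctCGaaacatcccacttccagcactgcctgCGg
Cubn: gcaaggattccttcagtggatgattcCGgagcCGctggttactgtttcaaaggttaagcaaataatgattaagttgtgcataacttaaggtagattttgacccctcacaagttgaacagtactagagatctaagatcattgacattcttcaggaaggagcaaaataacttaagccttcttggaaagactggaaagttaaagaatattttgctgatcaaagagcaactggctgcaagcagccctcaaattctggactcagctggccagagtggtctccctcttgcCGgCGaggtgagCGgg
Afp has 3 CpGs and Cubn 5. The 19 visceral endoderm genes with a window had a median of 5, against 21 for all tested genes with one, and 7 over all windows.

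Markers of the anterior visceral endoderm, the group of cells that secretes inhibitors of WNT and Nodal toward the future head, were read in the same 2 homozygous pools. Of 11 tested, 10 were higher (51.3% of all genes were), with a median log2 fold change of 0.69, and 3 had an unadjusted p under 0.05, all of them higher (1.43% of all genes). Cer1 and Dkk1, among these 3, passed the filter on low counts only with the homozygous pools, where they were high. Their part in these counts depends on that selection and is no independent support. Cer1, an inhibitor of Nodal and BMP, stood at 10.0 and 23.9 CPM in homozygous pools 1 and 2 and had 0 counts in pools 3 and 4 and in all heterozygous pools. Dkk1, an inhibitor of WNT, stood at 15.7 and 10.8 CPM in homozygous pools 1 and 2 and at 0 in pools 3 and 4. It had 1 count in all heterozygous pools together against 241, a ratio of 251 (95% exact binomial interval 44.6 to 9956). That interval covers counting error only and not the spread between pools. Lhx1 stood at 11.7, 16.0, 0 and 0.860 CPM, against 0.214, 0, 0 and 2.51 CPM. Without homozygous pools 1 and 2, 2 of 10 were higher and the median was -0.40, so the direction of the list rests on those pools. Bmp2, a BMP ligand, was distributed alike, at 13.2, 13.9, 1.55 and 0.344 CPM in the homozygous pools. Sfrp1, a secreted WNT antagonist, was read in every library, at 73.7, 95.0, 40.9 and 75.7 CPM against 55.1, 41.9, 26.6 and 53.5 CPM (0.69 ± 0.27).

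Genes of the primitive streak, where mesoderm and definitive endoderm arise, had a median log2 fold change of -0.24. Of 23 tested, 17 were lower in the homozygous pools (48.7% of all genes were) and 6 higher. Of these, 3 lower members (1.05% of all genes) and 2 higher ones (1.43%) had an unadjusted p under 0.05, and edgeR and DESeq2 called 0. Lefty2, 1 of the 3, had led earlier comparisons of these libraries, and without it the median was -0.21. Averaged over the 23 tested genes, log2 CPM was 3.58, 3.00, 2.64 and 2.55 in homozygous pools 1, 2, 3 and 4. In heterozygous pools 2, 3, 4 and 5 it was 3.21, 2.81, 3.24 and 3.08, so the groups overlapped. The wild-type pools ran from 2.56 to 4.49. Mixl1, a homeobox gene of the early streak, stood at 39.9, 21.3, 18.5 and 24.3 CPM in the heterozygous and at 9.82, 3.70, 1.37 and 9.12 CPM in the homozygous pools. The groups did not overlap, and the log2 fold change was -2.11 ± 0.80. In wild type it ranged from 4.92 to 127 CPM, a span that holds 6 of the 8 other pools. Mesp1, the factor of nascent mesoderm, stood at 2.46, 1.98, 9.62 and 0.792 CPM against 0.451, 0, 0 and 0 CPM (-4.66 ± 1.69), and in wild type from 0 to 34.8 CPM.

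Lefty2, the feedback inhibitor of Nodal, stood at 29.7, 19.9, 8.57 and 31.8 CPM in the heterozygous and at 6.09, 13.4, 5.32 and 8.77 CPM in the homozygous pools. The overlap came from the biased heterozygous pool 4, and the log2 fold change was -1.42 ± 0.42. In wild type Lefty2 stood at 22.7 to 48.6 CPM. Without the 2 biased libraries DESeq2 called it (adjusted p = 0.0286) among 21 genes (0.166%), and edgeR did not. Evx1, another streak homeobox gene, averaged 25.7 and 12.9 CPM, and for Axin2, a target of WNT, the log2 fold change was -0.59 ± 0.40. Eomes, needed in both streak and trophoblast, stood at 142 to 181 CPM and 89.5 to 194 CPM (-0.19 ± 0.26). The higher members with an unadjusted p under 0.05 were Cer1 and Gata6, which the visceral endoderm also expresses. Both passed the filter on low counts only with the homozygous pools. Of the 25 tested genes of the Nodal and TGF-beta pathway, 10 were higher and 15 lower, with Lefty2 the one member at an unadjusted p under 0.05.

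In the list of neural and surface ectoderm and of mesenchyme, the 3 genes Twist1, Barx1 and Crabp2 stood out, and they had been put there with earlier results of these libraries known. With them, 8 of 10 tested genes were higher (51.3% of all genes were), with a median log2 fold change of 0.46, and they were the 3 members at an unadjusted p under 0.05 (1.43% of all genes). Without them, 5 of 7 were higher, with a median of 0.24, and 0 had an unadjusted p under 0.05. Averaged over these 7, log2 CPM was 4.20, 4.73, 4.68 and 4.10 in homozygous pools 1, 2, 3 and 4 and 3.84, 4.38, 4.08 and 4.09 in heterozygous pools 2, 3, 4 and 5, so the groups overlapped. Averaged over all 10, log2 CPM was 4.09, 4.43, 4.54 and 4.02 in homozygous pools 1, 2, 3 and 4, 3.53, 3.75, 3.56 and 3.46 in heterozygous pools 2, 3, 4 and 5, and 3.01 to 3.29 in wild type. The 3 genotypes did not overlap in this average, which includes the 3 genes chosen with earlier results known. Twist1 and Barx1 are factors of cranial mesenchyme more than of neural tissue. Twist1 stood at 3.11, 3.03, 3.499 and 1.19 CPM against 8.46, 7.83, 11.8 and 12.2 CPM (1.89 ± 0.57), with wild type at 0.550 to 2.98 CPM. Barx1 stood at 3.75, 0.698, 1.05 and 1.85 CPM against 6.66, 7.83, 12.9 and 5.85 CPM (2.15 ± 0.70), with wild type at 0 to 0.408 CPM. Barx1 passed the filter on low counts only with the homozygous pools, where it was high. Its part in the list's counts depends on that selection and is no independent support. Crabp2, which carries retinoic acid, averaged 26.9 and 40.8 CPM (0.60 ± 0.24) and 19.4 CPM in wild type.

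Markers of trophoblast did not separate the genotypes but differed widely between pools. Of 21 tested, 9 were higher and 12 lower, with a median log2 fold change of -0.07. Summed over the list, heterozygous pools 2, 3, 4 and 5 held 350, 485, 1446 and 459 CPM. Homozygous pools 1, 2, 3 and 4 held 693, 335, 976 and 360 CPM. Heterozygous pool 4 and homozygous pool 3, the libraries with the length and GC bias, were the highest. Elf5, a defining factor of trophoblast stem cells, stood at 35.7 CPM in heterozygous pool 4 and 20.8 CPM in homozygous pool 3, against 0.107 to 11.8 CPM in the other 6. Hand1, a factor of trophoblast giant cells, was at 149 and 56.3 CPM there, and its log2 fold change of -1.06 ± 1.54 became 1.47 without the 2 libraries. Without them 17 of 20 trophoblast genes were higher, with a median of 0.58, and without heterozygous pool 4 alone the median was 1.40. Maternal decidua and blood were scarcely read. Their 22 listed genes summed to 36.5 to 72.6 CPM in heterozygous and 38.8 to 70.3 CPM in homozygous pools, and 7 passed the filter on low counts.

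**Figure D4:**
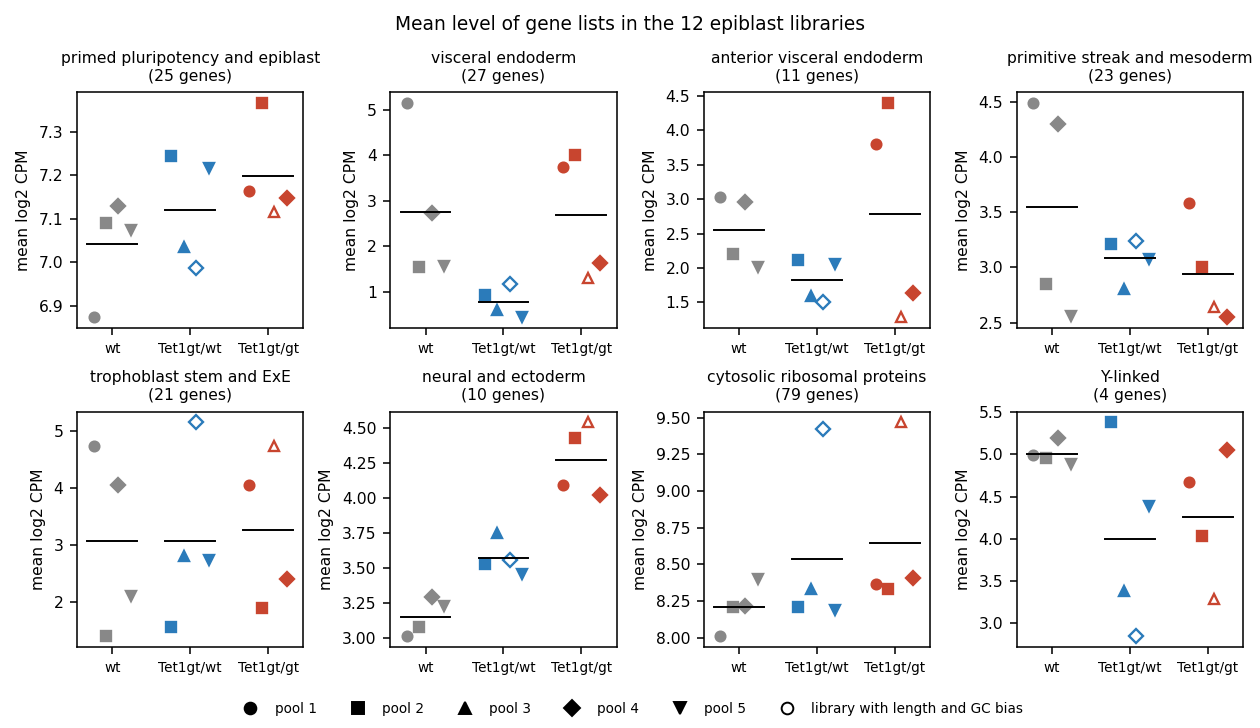
Mean log2 CPM (y axis, a separate scale for each panel) of the tested genes of 8 lists in the 12 epiblast libraries by genotype (x axis); symbols give the pool, open symbols the libraries with a length and GC bias, bars the group mean. Visceral endoderm genes are highest in wild-type pool 1, followed by homozygous pools 2 and 1, trophoblast genes are high in both biased libraries and in wild-type pool 1, and ribosomal protein genes in both biased libraries; the neural and ectoderm panel includes Twist1, Barx1 and Crabp2.

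The remaining lists cover pluripotency, metabolism and growth pathways. Of 25 genes of primed pluripotency 16 were higher, with a median of 0.07, and Nanog gave -0.37 ± 0.32. Of 27 tested genes of cholesterol synthesis, 23 were lower (48.7% of all genes were), with a median of -0.21 that kept its sign in each fit with 1 pool left out. None of them had an unadjusted p under 0.05, and Tm7sf2, a sterol reductase, was the largest at -0.93 ± 0.45. The mean log2 CPM of the cholesterol list overlapped, at 5.31 to 5.67 in homozygous and 5.51 to 5.91 in heterozygous pools. Of 79 cytosolic ribosomal protein genes, 73 were higher, but their median of 0.10 ran from -0.31 without homozygous pool 3 to 0.47 without heterozygous pool 4. The median of the FGF and ERK pathway (25 genes) was 0.03. That of the WNT pathway (35) was 0.15, and it ran from 0.07 without homozygous pool 2 to 0.40 without heterozygous pool 5. That of the BMP pathway (19) was also 0.15 and ran from -0.04 without homozygous pool 3 to 0.63 without heterozygous pool 4. The median was -0.09 for TET1 partners and Polycomb (15), with 0.07 without homozygous pool 3, and -0.05 for germline and meiosis (18), from -0.23 without homozygous pool 2 to 0.25 without heterozygous pool 2. In the FGF and ERK list, Dusp4, a phosphatase that limits ERK, gave -0.62 ± 0.28. In the cell cycle list, the inhibitor Cdkn1a gave 1.19 ± 0.44, at 3.17 to 7.72 CPM against 6.66 to 17.6 CPM.

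Among 28 tested imprinted genes, 15 were higher and 13 lower, with a median of 0.02. Nnat was the one member that DESeq2 called (0.0484% of all genes). Zrsr1 and Zdbf2, both expressed from the paternal copy, had unadjusted p-values under 0.05 in the other direction. Zrsr1 stood at 0.350 to 1.45 CPM against 2.22 to 3.96 CPM (1.49 ± 0.64), without overlap. Zdbf2 stood at 11.02 to 30.2 CPM against 24.6 to 59.0 CPM (0.77 ± 0.34), with overlap.

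**Figure D5:**
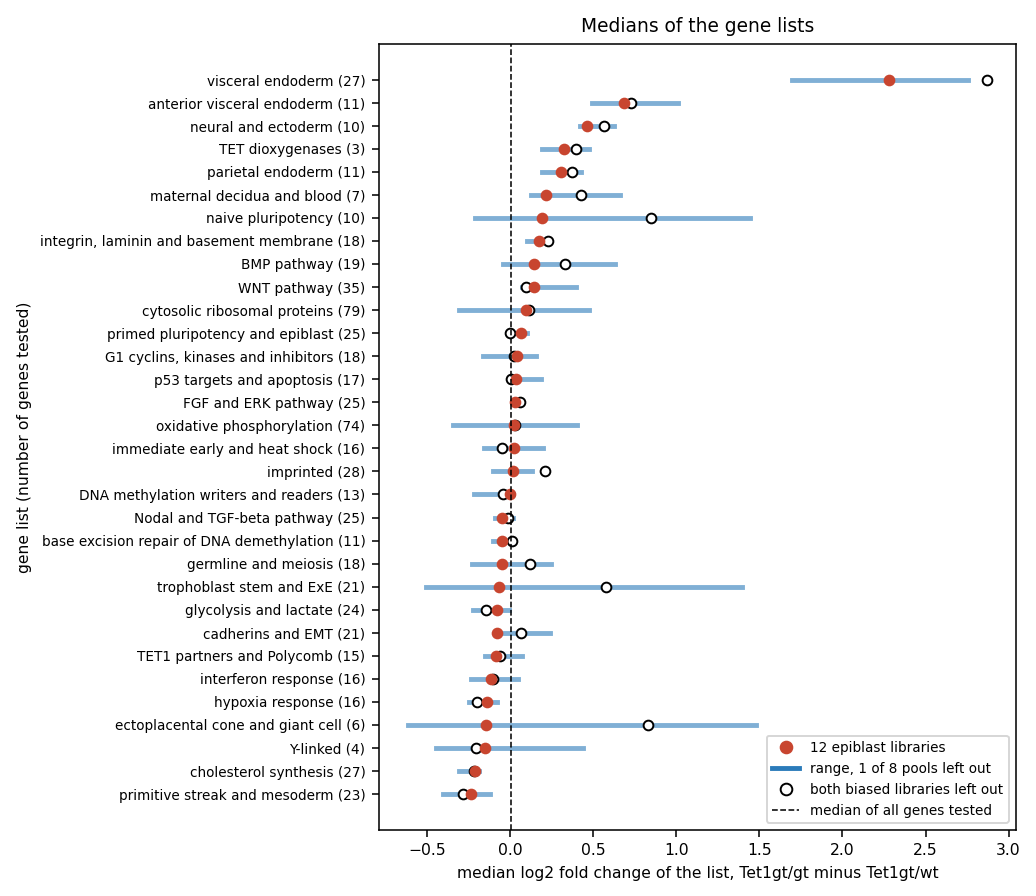
Median log2 fold change, homozygous minus heterozygous epiblast (x axis), of each gene list (y axis, with the number of genes tested). Red points use 12 epiblast libraries, blue bars span the 8 fits with 1 pool left out, open circles leave out both biased libraries and the dashed line is the median of all genes. Visceral endoderm has the highest median, at 2.28, and the trophoblast bar runs from -0.51 to 1.40.

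The same contrast was set against extra-embryonic tissue, which had 4 heterozygous and 3 homozygous pools, in 1 fit of all 23 libraries. By the labels' protocols, 3 of 4 pools took both tissues from shared litters under 1 number, which this fit did not use. edgeR called 0 of 13595 genes (0%) for a difference of the effect between the tissues, with 624 genes at an unadjusted p under 0.05 and a smallest adjusted p of 0.257. With genotype and pool number as a block, edgeR again called 0 (smallest adjusted p 0.892). DESeq2 called 6 (0.0442%). Nnat was one of them. In extra-embryonic tissue it stood at 1.42, 1.58, 1.23 and 2.34 CPM in the heterozygous and 2.70, 10.3 and 4.03 CPM in the homozygous pools, so there the homozygous pools lay above the heterozygous ones. The 10.3 CPM belongs to ExE homozygous pool 3, in which Rps29, a short ribosomal protein transcript, stood at 340 CPM, against 72.1 to 150 CPM in the other ExE libraries. The wild-type ExE pools stood at 14.4, 2.99, 14.1 and 5.81 CPM, a span that holds 2 of the 3 homozygous values. The difference between the effects was -2.92 ± 0.63 on the log2 scale (edgeR adjusted p = 0.694). It was -2.54 ± 0.73 with the block and -2.20 ± 0.64 without the 3 libraries with a length and GC bias (edgeR adjusted p = 0.892 and 0.737).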

How the data were processed

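RNA of 23 pools was measured; 12 epiblast libraries entered the main fit. Per the labels' protocols, 1 to 10 ng of RNA per pool (RNA integrity number above 8) were amplified with a SMARTer kit and read as single 75-bp reads. The authors deposited raw counts per gene, whole numbers without normalisation. The design text and the submitters' processing notes name FastX 0.0.13, cutadapt 1.7.1, ShortRead 1.16.3 and TopHat2 2.0.12 on mm10 (GRCm38). The counting program, its annotation and strand setting are not stated in the sources used here, so a gene cannot be told apart from an antisense or overlapping neighbour, and genes with near-identical copies, such as ribosomal protein genes, are uncertain. Of 23725 lines, 27 had a date in place of a symbol and 0 lacked a name. Positions come from GENCODE M21, which matched 98.5% of the lines.

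The analysis used edgeR 4.0.16 under R 4.3.3. Low genes were removed by filterByExpr, with a minimum count of 10 and a minimum total of 15, and libraries were scaled by TMM. glmQLFit and glmQLFTest were run two-sided on the 12 epiblast libraries of 3 genotypes, and p-values were adjusted by Benjamini-Hochberg over every gene in the fit (threshold 0.05). The script was tested on simulated data. Fold changes use a prior count of 0.125, and mean log2 CPM levels one of 2. DESeq2 1.42.0, limma-voom (limma 3.58.1), fits without biased libraries, with length and GC offsets, with covariates, with a replicate block and with each pool left out were alternatives. The spread that the p-values measure is that between pools. All 12 pairs of pools compared within the heterozygous and homozygous epiblast groups differed by more than counting noise (chi-square 13.1 to 101 per degree of freedom, genes of 20 counts or more); each library counted as 1 replicate. Per the labels' protocols, epiblast and ExE of 3 of 4 pools came from shared litters and share a number. Nothing in them pairs heterozygous with homozygous pools.

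The members and gene lists were chosen with earlier results of these data known, so lists are described by counts and medians without a test. Named genes are Tet1, Tet2, Tet3, 5 genes of DNA methylation, 12 genes that led earlier comparisons, the 10 non-overlapping genes of smallest p in each direction whose mean log2 CPM was 1 or more, members of each list with the smallest p (up to 8 for 3 lists and 4 for the others), and leading genes of the difference between tissues. Some genes that the rule picks are not reported here.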

Additional observations from a re-analysis of the deposited data

Results flagged for a closer look

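In 20 of the 198 groups of 4 pools that were examined (67 genes and 32 list levels in each genotype), 1 pool lay far from the other 3, relative to the group's range. For normally distributed values chance flags about 1 in 20 such groups. A group with 0 counts in 3 pools and any count in the other is always flagged, as for Apob, Dkk1 and Mesp1. The flagged Apob and Dkk1 values lie below the 3-count floors of their libraries, 0.525 and 0.321 CPM. The 2 libraries with a length and GC bias hold 11 of the 20 flags. In homozygous pool 3 the mean log2 CPM was 9.47 for cytosolic ribosomal proteins (8.33 to 8.40 in the other pools) and 7.54 for oxidative phosphorylation (6.53 to 6.57). In heterozygous pool 4 the same lists stood at 9.42 and 7.57, immediate early and heat shock genes at 4.84, and TET1 partners and Polycomb, which were low there, at 6.88. In the same pool Tet1 was low at 66.3 CPM, Dnmt1 at 209.9 CPM and Cd44 at 0.175 CPM, while Flad1 was high at 35.0 CPM and Apob stood at 0.350 CPM where the other 3 pools had 0 counts.

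In the other pools, heterozygous pool 5 was low for Twist1, at 1.19 CPM, and Vegfa, at 3.30 CPM, and high for Lhx1, at 2.51 CPM. Heterozygous pool 3 was high for Dab2, at 27.7 CPM, and Bmp2, at 1.63 CPM. Heterozygous pool 2 was low for Tnfrsf1a, at 11.04 CPM, and alone held Dkk1, at 0.107 CPM. Homozygous pool 1 alone held Mesp1, at 0.451 CPM, and homozygous pool 2 was high for Pkp1, at 4.97 CPM.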

How the results depend on the processing

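edgeR called 0 genes between homozygous and heterozygous epiblast in each of the edgeR fits and in limma-voom, with a replicate block as well (203 genes at an unadjusted p under 0.05), and with each pool left out. DESeq2 called 6, again 6 on the 8 libraries alone (4 of them shared with the first 6) and 21 without both biased libraries. For the difference between tissues DESeq2 called 6 and edgeR 0, also with each pool left out. Alternatives added after the data were seen are DESeq2 on 8 libraries, DESeq2 without the biased libraries, leaving out homozygous pools 1 and 2, and leaving out list members that led earlier comparisons. Same-numbered heterozygous and homozygous pools correlated at 0.521, -0.677 and -0.75 (numbers 2, 3 and 4), but pairs 3 and 4 each hold 1 biased library, so these values do not show whether the numbers pair the pools. The labels do not pair them, and the main fit has no block; with the replicate block the streak median was -0.60. Without Twist1, Barx1 and Crabp2 the neural and ectoderm median was 0.24. With 1 pool left out the medians ran from 1.70 to 2.76 (visceral endoderm), -0.40 to -0.12 (streak) and -0.51 to 1.40 (trophoblast), and the exact p of Tet1 from 0.0571 to 0.343. Without homozygous pools 1 and 2 the visceral endoderm median was 0.42. Of 67 genes in 22 alternative fits, 59 kept their direction. With 1 pool left out, Dnmt1 ran from -0.14 to 0.13, Dnmt3a from -0.083 to 0.11, Dnmt3l from -0.80 to 0.16, Uhrf1 from -0.098 to 0.037 and Hand1 from -2.65 to 3.06. Hand1 was 0.44 with limma-voom, 1.47 without both biased libraries (1.46 with DESeq2) and 1.36 with a covariate for the level of Y-linked genes. Dnmt1 was -0.027 and Dnmt3a -0.042 without both biased libraries (-0.016 and -0.030 with DESeq2), -0.037 and -0.088 with length and GC offsets, and -0.060 and -0.012 with the Y-linked covariate. With the visceral endoderm covariate Dnmt1 was -0.026, Uhrf1 0.075 and Lhx1 -0.80. Uhrf1 was 0.0072 with the replicate block, 0.0066 with the Y-linked covariate and 0.11 without homozygous pools 1 and 2, where Dnmt1 was -0.0078, Spink3 -0.24, Dkk1 -1.49 and Lhx1 -0.65. Cer1 had 0 counts in all remaining pools there and gave no value. The causes were not tested.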

Other observations

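A further group of genes stood high in homozygous pools 1, 2 and 4 and low in the biased pool 3. DESeq2 called 21 genes without the 2 biased libraries (19 higher, 2 lower), of which 5 were also called with all 12 libraries. The following were picked from these 21 after their values were seen. Amot, which encodes angiomotin, a scaffold of the Hippo pathway, stood at 75.8, 90.0, 11.2 and 38.0 CPM in homozygous pools 1, 2, 3 and 4 and at 12.8, 24.3, 13.1 and 17.7 CPM in heterozygous pools 2, 3, 4 and 5. Gpc4, a heparan sulfate proteoglycan of the cell surface, stood at 60.9, 92.2, 21.8 and 50.2 CPM against 29.8, 26.3, 20.3 and 30.0 CPM. For both, homozygous pool 3 lay at the heterozygous level and the other 3 pools above it. Wdr37 stood at 28.6, 25.9, 9.44 and 30.8 CPM against 11.7, 13.7, 7.52 and 13.3 CPM. Pkd2, the cation channel polycystin-2, stood at 58.0, 60.6, 18.0 and 48.2 CPM against 24.8, 40.2, 13.6 and 25.2 CPM. Kirrel, an adhesion protein of the immunoglobulin family, stood at 33.5, 22.7, 29.0 and 26.3 CPM against 8.25, 4.07, 23.4 and 12.02 CPM, where the biased heterozygous pool 4 was the one out of line. In the fit of all 12 libraries the log2 fold changes were 1.66 ± 0.48 for Amot, 1.08 ± 0.33 for Gpc4, 1.03 ± 0.34 for Wdr37, 0.83 ± 0.35 for Pkd2 and 1.23 ± 0.44 for Kirrel, and edgeR called 0 of these 5. The wild-type pools stood at 26.7 to 48.1 CPM for Amot, 27.6 to 32.4 CPM for Gpc4 and 40.9 to 44.0 CPM for Pkd2.

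Of 18 tested genes of integrins, laminins and basement membrane, 12 were higher in the homozygous pools, with a median log2 fold change of 0.18 that became -0.11 without homozygous pools 1 and 2. In this list 2 genes lay higher in the homozygous pools without overlap (0.935% of all genes did). Sparc, a matrix protein, stood at 99.3 to 130 CPM in heterozygous and 132 to 164 CPM in homozygous pools, without overlap. In wild type Sparc ran from 72.9 to 161 CPM, a span that holds all heterozygous and most homozygous pools. Itga3, the laminin receptor subunit, stood at 54.0 to 91.4 CPM and 91.8 to 117 CPM, again without overlap, with wild type at 50.4 to 60.5 CPM. Vim, the intermediate filament of mesenchyme, stood at 29.9 to 39.9 CPM and 33.0 to 70.9 CPM.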
